A study of Mus musculus with 8 samples.

Results

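The CC chemokines examined here were 10 genes, Ccl2, Ccl3, Ccl4, Ccl5, Ccl6, Ccl7, Ccl8, Ccl9, Ccl11 and Ccl12. They were taken as the rows of the deposited expression table that carry these symbols, and each symbol was found once, which gave 10 of the 22520 genes in the table. The rule names symbols and sets no threshold on a measured value. All 10 were followed across the 8 libraries of the series, 4 labelled LRP1 KO and 4 labelled Wildtype (WT). Values given for the 4 libraries of a group stand in the order of their numbers, 1 to 4.

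The study asked what endothelial cells (ECs) express differently when they lack LRP1, a large endocytic receptor of the LDL receptor family, and it used mRNA sequencing for this. The labels give the source of every library as microvascular cells mixed from heart, liver and lung, and give the mice as C57BL/6 and 14 days old (postnatal day 14). The study itself describes liver ECs and heart and lung ECs as separate sequencing sets, and the labels, which were followed here, do not separate them. According to the study, the WT mice were littermates with LRP1 f/f and Cdh5-CreER-/-, and the LRP1 KO mice had LRP1 f/f and Cdh5-CreER+/-. All animals therefore carried the floxed allele, and the knockout animals alone carried the recombinase. The recombinase is tamoxifen-inducible and is driven by the promoter of Cdh5, a junction protein of ECs, so that the deletion was aimed at endothelium. The cells were collected with beads against PECAM-1, a surface protein that platelets and many leukocytes carry as well as ECs. Values were read as FPKM, fragments mapped to a gene for each kilobase of its transcript, corrected for the fragments mapped in total, quantile normalized by the authors, which corrects for transcript length and allows levels to be set beside each other between genes. The labels do not say whether libraries of a group came from separate animals, so errors and p-values measure the spread between these libraries.

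Chemokines are small secreted proteins that draw leukocytes along a gradient through G protein-coupled receptors. The CC family is named for a pair of adjacent cysteines near the start of the mature protein. Ccl2, Ccl7 and Ccl12 attract monocytes through CCR2, Ccl11 (eotaxin) attracts eosinophils through CCR3, and mouse Ccl8 acts on CCR8. Ccl3 and Ccl5 act on CCR1 among other receptors, Ccl4 is a close relative of Ccl3, and Ccl6 and Ccl9 act on CCR1 and are known as products of myeloid cells. ECs are a textbook source of Ccl2 in inflamed tissue.

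The stretch of coding sequence around the adjacent cysteine codons is shown for 9 of the 10 genes because it defines the family and shows how near the members are to each other. Each stretch is 33 bases of GENCODE M21 coding sequence on GRCm38, read 5′ to 3′ on the gene's own strand, and the capitals mark the cysteine codons. The 5 genes on the monocyte and eotaxin side come first.
Ccl2, chr11:82036494-82036526, plus strand, exon 2: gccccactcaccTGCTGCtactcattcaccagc
Ccl7, chr11:82046526-82046558, plus strand, exon 2: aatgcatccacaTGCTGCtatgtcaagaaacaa
Ccl11, chr11:82061684-82061716, plus strand, exon 2: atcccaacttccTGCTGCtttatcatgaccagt
Ccl12, chr11:82102622-82102654, plus strand, exon 2: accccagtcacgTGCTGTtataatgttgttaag
Ccl8, chr11:82116044-82116076, plus strand, exon 2: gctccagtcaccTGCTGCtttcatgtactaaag
Ccl5, chr11:83529227-83529259, minus strand, exon 2: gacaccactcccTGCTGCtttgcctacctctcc
Ccl9, chr11:83575911-83575943, minus strand, exon 3: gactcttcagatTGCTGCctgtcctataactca
Ccl6, chr11:83589371-83589403, minus strand, exon 3: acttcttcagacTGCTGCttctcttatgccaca
Ccl4, chr11:83663470-83663502, plus strand, exon 2: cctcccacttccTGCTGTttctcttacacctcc
Ccl4 and Ccl12 use TGCTGT for the pair and the other 7 shown use TGCTGC. In Ccl6 and Ccl9 the pair lies in exon 3, counted along the longest coding transcript, and in the other 7 shown it lies in exon 2. Over the whole coding sequence the nearest relatives were Ccl8 and Ccl12 (70.8% of aligned bases the same), Ccl6 and Ccl9 (70.4%) and Ccl3 and Ccl4 (69.96%), while the most distant were Ccl5 and Ccl7 (51.6%).

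All 10 genes lie on chromosome 11 in a pair of clusters. Ccl2 (ENSMUSG00000035385, chr11:82035571-82037453), Ccl7 (ENSMUSG00000035373, chr11:82045712-82047525), Ccl11 (ENSMUSG00000020676, chr11:82057823-82062955), Ccl12 (ENSMUSG00000035352, chr11:82101845-82103400) and Ccl8 (ENSMUSG00000009185, chr11:82115185-82116799) follow each other on the plus strand with no other coding gene between them. A gap of 1409 kb that holds 26 coding genes separates them from Ccl5 (ENSMUSG00000035042, chr11:83525778-83530518), Ccl9 (ENSMUSG00000019122, chr11:83572919-83578636), Ccl6 (ENSMUSG00000018927, chr11:83587882-83593087) and Ccl3 (ENSMUSG00000000982, chr11:83647844-83649355), all on the minus strand, and Ccl4 (ENSMUSG00000018930, chr11:83662584-83664683) on the plus strand. In the annotation Ccl2 overlaps the gene Gm17268 and Ccl6 overlaps E230016K23Rik. Of the 50-base stretches of the longest coding transcript, 1.995% in Ccl9 and 0% in the other 9 members recur in another gene's transcript, and none of those genes is another member.

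Facts of the whole series bear on every value below. Lrp1 itself ranged from 103 to 140.4 FPKM among WT libraries and from 2.79 to 7.72 FPKM among LRP1 KO libraries, and its log2(FPKM + 1) fell by 4.45 (SE 0.23, limma adjusted p = 8.89e-05), with means of 120.1 and 4.79 FPKM. The first principal component held 60.8% of the variance and placed LRP1 KO library 4 at 0.10, between WT (-24.1 to -12.9) and the other LRP1 KO libraries (17.2 to 27.3). The 16 endothelial marker genes summed to 172 to 187 FPKM in WT, while 10 fibroblast markers summed to 2529 to 3677 FPKM, so the libraries labelled as microvascular cells also held abundant fibroblast RNA. In LRP1 KO the endothelial markers summed to 179 to 621 FPKM and the fibroblast markers to 2055 to 3266 FPKM, so Lrp1 was low in libraries where fibroblast markers stayed far above endothelial ones, and which cells had lost Lrp1 was not tested. The Y-linked genes Ddx3y, Eif2s3y, Kdm5d and Uty were near 0 in WT library 4 and LRP1 KO library 2 and present in the other 6. In bulk libraries such as these, a change in the number of cells of a type and a change in RNA per cell cannot be told apart.

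The CC chemokine pool of WT cells was almost wholly Ccl2 and Ccl7. Together these made up 94.97% ± 1.57 (SD, n = 4) of the summed level of the 10 genes in WT and 76.9% ± 7.61 in LRP1 KO, and the groups did not overlap. Their own sum averaged 233.6 ± 9.31 FPKM for WT against 257.5 ± 48.0 FPKM for LRP1 KO, with overlap between the groups. The sum of the other 8 was 9.20, 12.4, 18.3 and 9.85 FPKM across the 4 WT libraries, against 76.3, 100.3, 47.0 and 81.6 FPKM across the 4 of LRP1 KO, a 6.14-fold difference of means. The change in the make-up of the pool was therefore carried by genes that were minor in WT, chiefly Ccl6, whose share went from 2.14% ± 1.11 to 15.8% ± 6.14.

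**Figure D1:**
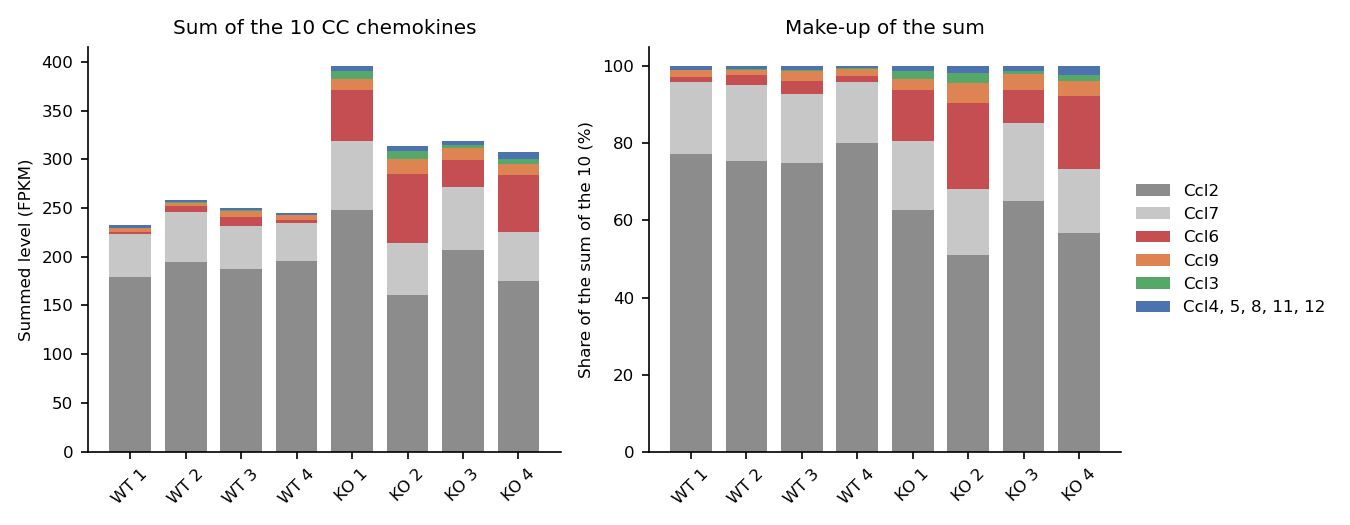
Summed level of the 10 CC chemokines in each library (left, FPKM) and the share of each gene in that sum (right, %), 4 WT and 4 LRP1 KO libraries, 1 bar per library. The grey segments for Ccl2 and Ccl7 fill 92.7% to 96.0% of the WT bars and 68.1% to 85.2% of the LRP1 KO bars, and the red Ccl6 segment is the widest addition.

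Ccl2, the main monocyte attractant, was the most abundant member in every library. Its values were 179, 194, 187 and 196 FPKM across the 4 WT libraries, against 248, 160.3, 207 and 175 FPKM across the 4 of LRP1 KO. LRP1 KO libraries lay on either side of the narrow WT range, with library 1 the highest and library 2 the lowest of all 8. The log2 difference was 0.04 (SE 0.12, 95% interval -0.23 to 0.32, limma adjusted p = 0.826), which does not exclude a rise or fall inside that interval. Without LRP1 KO library 1 the difference was -0.072.

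Ccl7, its neighbour on the chromosome and a second CCR2 ligand, was at 43.7, 51.1, 44.5 and 38.9 FPKM across the 4 WT libraries, against 71.0, 53.5, 63.9 and 51.1 FPKM across the 4 of LRP1 KO. The groups touched, since LRP1 KO library 4 lay just under WT library 2. The rise of 0.41 (SE 0.12) passed the threshold narrowly (limma adjusted p = 0.0460), with p = 0.0571 in an exact two-sided permutation test. The call was lost, with adjusted p of 0.0902, 0.0587, 0.0808 and 0.0942, without WT libraries 1, 2, 3 or 4 in turn, and with 0.114, 0.0709 and 0.125 without LRP1 KO libraries 1, 2 or 3. It was also lost with no filter on low values (0.0825), without the variance trend (0.0535) and with the replicate number as a term (0.0583), while over all 15 alternatives the adjusted p ran from 0.0126 to 0.125.

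Ccl12 is the third CCR2 ligand of the mouse and was close to 0. It was listed at 0, 0.0805, 0.160 and 0 FPKM across the 4 WT libraries, against 0.593, 0.254, 0.176 and 0.798 FPKM across the 4 of LRP1 KO. Every LRP1 KO value lay above every WT value, with an exact two-sided permutation p of 0.0286, the smallest that 4 libraries against 4 can give. Ccl12 never reached 1 FPKM and was left out of the limma fit, and in the fit with no filter its adjusted p was 0.0915.

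The same low level applied to Ccl8 and Ccl11. Ccl8 was at 0.778, 0.825, 1.26 and 0.638 FPKM across the 4 WT libraries, against 0.267, 1.28, 0.984 and 1.85 FPKM across the 4 of LRP1 KO, so that LRP1 KO held both the lowest and the highest value (exact permutation p = 0.714). Ccl11 stayed between 0.0939 and 0.0996 FPKM for WT and was listed at 0, 0.0440, 0 and 0.114 FPKM across the 4 of LRP1 KO (exact permutation p = 0.143). At these levels no difference was detectable for either gene, and the unfiltered limma fit gave adjusted p of 0.801 for Ccl8 and 0.179 for Ccl11.

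**Figure D2:**
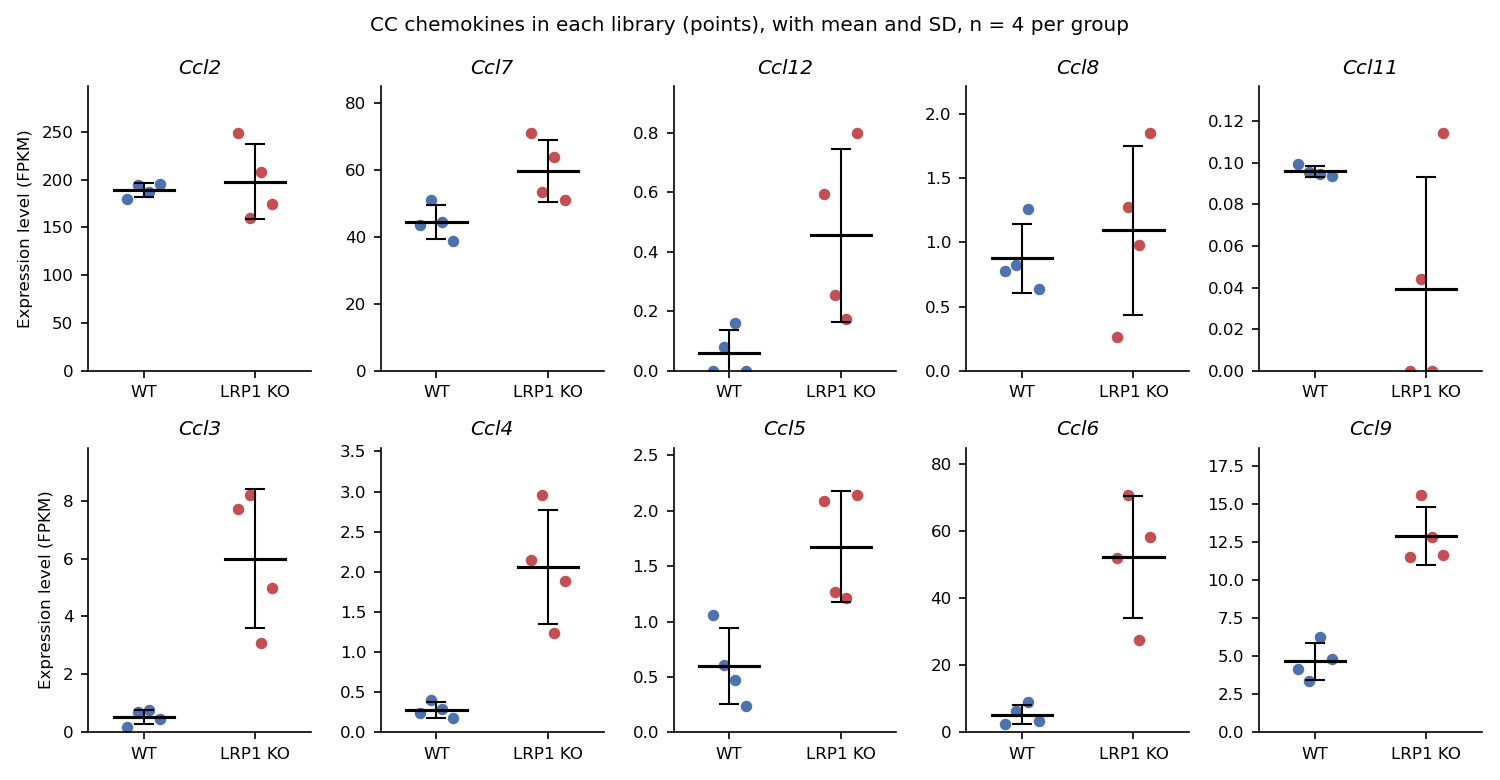
Level of each CC chemokine in FPKM on a linear axis that starts at 0, with 1 point per library, the group mean as a thick bar and the SD as whiskers (n = 4 per group). The upper row holds the genes of the Ccl2 cluster, of which only Ccl12 has separate groups, and the lower row holds the genes of the Ccl5 to Ccl4 cluster, which all have separate groups.

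In the second cluster all 5 genes, Ccl3, Ccl4, Ccl5, Ccl6 and Ccl9, were higher in every LRP1 KO library than in any WT library, a pattern that 8.84% of the 11389 tested genes showed. Ccl3 and Ccl4 passed the filter on low values (at least 1 FPKM in at least 4 libraries) through LRP1 KO libraries only, so they had to differ. The sum of the 5 averaged 11.4 ± 3.79 FPKM for WT and 74.7 ± 21.8 FPKM for LRP1 KO (6.55-fold), against 235 ± 9.31 and 259 ± 47.4 FPKM for the 5 genes of the first cluster, where the groups overlapped.

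On the log2(FPKM + 1) scale, which holds back genes near 0, Ccl6 had the second-largest rise of the 11389 tested genes. By the fold of means Ccl3 rose more than Ccl6. Ccl6 was at 2.65, 6.33, 8.92 and 3.43 FPKM across the 4 WT libraries, against 52.0, 70.7, 27.5 and 58.3 FPKM across the 4 of LRP1 KO. The lowest LRP1 KO library, library 3, was still 3.09 times the highest WT library. The mean rose 9.78-fold, and on the log2(FPKM + 1) scale the rise was 3.10 (SE 0.35, limma adjusted p = 0.00154). The percentile of Ccl6 among the tested genes, averaged over the libraries of a group, was 26.5 in WT and 84.4 in LRP1 KO.

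Ccl9, which lies 9.24 kb from Ccl6 and is its nearest relative among the members, started from a WT range that overlapped that of Ccl6 and rose less. Its values were 4.17, 3.40, 6.28 and 4.80 FPKM across the 4 WT libraries, against 11.5, 15.6, 12.8 and 11.6 FPKM across the 4 of LRP1 KO. The LRP1 KO values were tighter than those of Ccl6, with the highest 1.35 times the lowest against 2.57 times for Ccl6. The mean rose 2.76-fold and the log2 rise was 1.31 (SE 0.15, limma adjusted p = 0.00171).

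The difference between these neighbours was tested on the log2 ratio of Ccl6 to Ccl9 in each library, with 1 FPKM added to each value. That ratio ran from -0.50 to 0.74 in WT and from 1.05 to 2.23 in LRP1 KO, and the means differed by 1.80 (exact two-sided permutation p = 0.0286, 0.0476 after Benjamini-Hochberg adjustment over the 5 pairs compared). The adjusted p rose to 0.0952 without WT library 1 or WT library 4 and to 0.0714 without LRP1 KO library 2 or without the added 1, while the difference itself stayed between 1.60 and 2.07 with any library left out.

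Ccl3 and Ccl4, the macrophage inflammatory proteins, were below 1 FPKM in every WT library and above 1 FPKM in every LRP1 KO library. Ccl3 was at 0.198, 0.688, 0.769 and 0.474 FPKM across the 4 WT libraries, against 7.71, 8.19, 3.08 and 4.98 FPKM across the 4 of LRP1 KO. LRP1 KO libraries 1 and 2 were the highest, and the lowest, library 3, still lay above every WT library. Its mean rose 11.3-fold (log2 rise 2.13, SE 0.25, limma adjusted p = 0.00171, and 3.28 with 0.1 FPKM added). Ccl4 was at 0.244, 0.402, 0.297 and 0.175 FPKM across the 4 WT libraries, against 2.15, 2.96, 1.24 and 1.88 FPKM across the 4 of LRP1 KO. Its mean rose 7.37-fold (log2 rise 1.23, SE 0.16, limma adjusted p = 0.00280, and 2.48 with 0.1 FPKM added). Both genes entered the fit through their LRP1 KO libraries only, and with no filter on low values their limma adjusted p was 0.00979 and 0.0111. In both genes LRP1 KO library 2 was the highest and library 3 the lowest. The log2 rise is smaller than the fold of means here because 1 FPKM is added before the logarithm. A difference between the rises of Ccl3 and Ccl4 depended on that added 1. With it, the log2 ratio of Ccl3 to Ccl4 averaged 0.25 ± 0.21 in WT and 1.15 ± 0.26 in LRP1 KO (difference 0.90, exact two-sided permutation p = 0.0286, adjusted over the 5 pairs 0.0476, and 0.0714 without WT library 1, WT library 4 or LRP1 KO library 2). Without it, an alternative chosen after the data were seen, the ratio was -0.30, 0.77, 1.37 and 1.44 across the 4 WT libraries and 1.84, 1.47, 1.31 and 1.40 across those of LRP1 KO, with overlap (difference 0.69, exact two-sided permutation p = 0.171).

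Ccl5 (RANTES), a ligand of CCR1 and CCR3 that T cells also make, was low in both groups. It reached 1 FPKM in WT library 1 and in all 4 LRP1 KO libraries, so its pass of the filter rested mainly on LRP1 KO. It was at 1.06, 0.609, 0.477 and 0.240 FPKM across the 4 WT libraries, against 2.09, 1.27, 1.21 and 2.14 FPKM across the 4 of LRP1 KO. The gap between the groups was small, the lowest LRP1 KO library being 1.14 times the highest WT library. The mean rose 2.81-fold (log2 rise 0.75, SE 0.18, limma adjusted p = 0.0282), and with 0.1 in place of 1 FPKM added the log2 rise was 1.44. The call did not survive the loss of WT library 2, 3 or 4 (adjusted p = 0.0724, 0.0616 and 0.0580), of LRP1 KO library 1 or 2 (0.0809 and 0.0526), or of the filter on low values (0.0540), within a range of 0.00984 to 0.0809 over 15 alternatives.

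Counted together, 7 of the 10 members passed the filter on low values and 6 of these 7 were called, all of them higher in LRP1 KO. Of all tested genes, 13.6% were called in either direction and 6.27% were called higher. The 13.6% stands for 1547 genes, a number that ran from 512 to 3021 with a library left out. Ccl3, Ccl4, Ccl6 and Ccl9 also passed a 2-fold change, which 1.12% of tested genes did upward. The groups did not overlap, with LRP1 KO higher, in 5 of the 7 tested members and in Ccl12, against 8.84% of tested genes. These counts are a description: Ccl3 and Ccl4 passed the filter through LRP1 KO libraries only, and a gene that passes in this way has to differ. Ccl5 passed with 1 WT library beside its 4 LRP1 KO libraries. Between 4 and 6 members were called under the 15 alternatives, and Ccl3, Ccl4, Ccl6 and Ccl9 were called under each of them. Without LRP1 KO library 4 the 6 calls stood, with a log2 rise of 3.03 for Ccl6, 2.18 for Ccl3, 1.35 for Ccl9 and 1.25 for Ccl4.

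**Figure D3:**
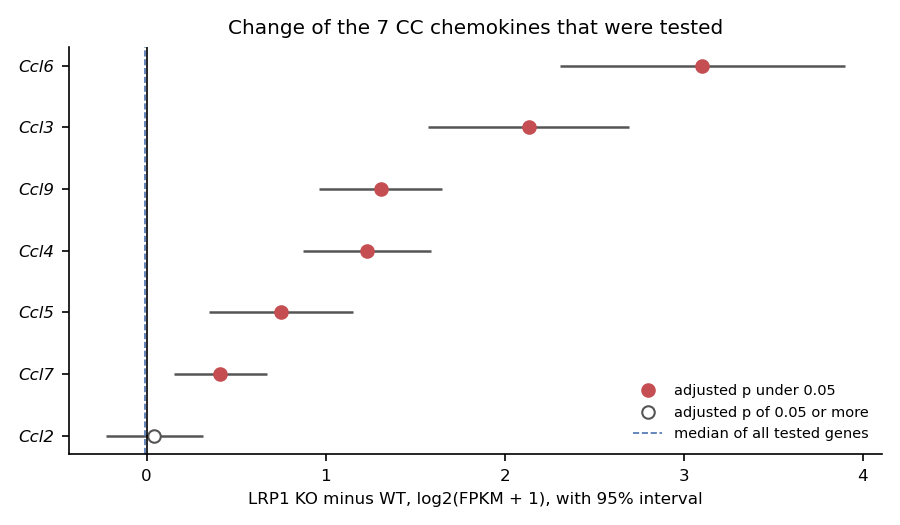
Difference between LRP1 KO and WT in mean log2(FPKM + 1) for the 7 CC chemokines that passed the filter, with the 95% interval of the limma fit (n = 4 per group). Filled points passed an adjusted p of 0.05 and the open point, Ccl2, did not, and the dashed line marks the median of all tested genes at -0.01.

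The order of the members by mean level was the same in both groups down to Ccl9, the 4th, and differed below it. In WT it was Ccl2, Ccl7, Ccl6, Ccl9, Ccl8, Ccl5, Ccl3, Ccl4, Ccl11 and Ccl12. Ranges of neighbours overlapped between Ccl6 and Ccl9, across the run from Ccl8 through Ccl5 and Ccl3 to Ccl4, and between Ccl11 and Ccl12. In LRP1 KO it was Ccl2, Ccl7, Ccl6, Ccl9, Ccl3, Ccl4, Ccl5, Ccl8, Ccl12 and Ccl11. There Ccl6 overlapped with Ccl7 and stood above it in LRP1 KO libraries 2 and 4, and the run from Ccl4 through Ccl5 and Ccl8 to Ccl12 overlapped from neighbour to neighbour.

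The remaining pairs came from the first cluster and were compared in the same way, with 1 FPKM added. The log2 ratio of Ccl2 to Ccl7 fell from 2.07 ± 0.17 in WT to 1.70 ± 0.10 in LRP1 KO without overlap, a difference of -0.37 (exact two-sided permutation p = 0.0286, adjusted over the 5 pairs 0.0476). Its adjusted p was 0.0714 without WT library 1, WT library 4, LRP1 KO library 2, LRP1 KO library 3 or the added 1. The ratio of Ccl2 to Ccl12 differed by -0.39 (exact permutation p = 0.0571, adjusted 0.0714), with 0.0476 without LRP1 KO library 3. The ratio of Ccl8 to Ccl11 differed by 0.19 (exact permutation p = 0.457, adjusted 0.457). The size of both is set by the constant added to values near 0, and with 0.1 FPKM added they were -1.71 and 0.66.

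Within the groups, the rising members did not all vary together. Over the 8 libraries, after subtraction of each group's mean log2(FPKM + 1), Pearson's r was 0.88 between Ccl3 and Ccl4, 0.81 between Ccl3 and Ccl6 and 0.72 between Ccl4 and Ccl6. Ccl2 and Ccl7 had r = 0.75 with each other and -0.26 and -0.05 with Ccl6. Ccl9 had r = 0.34 with Ccl6 and Ccl5 had -0.01. These libraries share one normalization and 8 points are few, so the values describe these libraries only.

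The genes whose within-group pattern was most like that of a member were also listed, the top 3 of 11382 tested genes for each. For Ccl6 these were Wfdc17, Snx25 and Rgs1 (r = 0.98, 0.97 and 0.96 over 8 libraries), of which Wfdc17 rose by 2.48 (limma adjusted p = 0.0136), Rgs1 by 1.65 (0.00214) and Snx25 differed by 0.00 (0.983). For Ccl3 they were Msr1, the scavenger receptor of macrophages, Lilrb4 and Pgam2 (r = 0.96, 0.95 and 0.95), and for Ccl4 they were Anxa6, Spin2 and Slc15a3 (0.98, 0.96 and 0.96). For Ccl2 they included Ttc32 and Usp15 (0.97 and 0.95), for Ccl7 Cited2, Maoa and Otud3 (0.98, 0.97 and 0.97), for Ccl5 Zfp87, Lsm10 and Lyrm4 (0.97, 0.97 and 0.96) and for Ccl9 Exoc6b, Efcab7 and 9130011J15Rik (0.97, 0.93 and 0.91). These are the highest values out of many genes over few libraries and are given as a description.

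The receptors of these ligands were scarce. Of 12 CC receptor genes, Ccrl2, which binds chemokines without signaling, alone passed the filter, with means of 1.39 FPKM in WT and 1.09 in LRP1 KO (limma adjusted p = 0.233). Ccr1, the receptor of Ccl3, Ccl5, Ccl6 and Ccl9, was at 0.221, 0.234, 0.294 and 0.299 FPKM across the 4 WT libraries, against 1.12, 1.62, 0.835 and 1.15 FPKM across the 4 of LRP1 KO. The groups did not overlap, with LRP1 KO higher, and LRP1 KO library 2 was the highest and library 3 the lowest of its group, as for Ccl6. Ccr2, the receptor of Ccl2, Ccl7 and Ccl12 and the mark of blood monocytes, was listed at 0 in all WT libraries and reached at most 0.0226 FPKM in LRP1 KO. Of 5 genes listed as atypical chemokine receptors, Pitpnm3 alone was analysed here, and it did not pass the filter. The other genes of that list were not analysed, so nothing is said here of receptors that take up chemokines without G protein signaling.

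Few of the other CC ligands were expressed. Of 14, 3 passed the filter and 0 were called by limma, nor did any (0) reach an unadjusted p under 0.05: Ccl25 at 4.62 ± 0.21 and 4.92 ± 0.77 FPKM in WT and LRP1 KO (adjusted p = 0.657), Ccl27a at 5.60 ± 0.87 and 5.70 ± 1.08 FPKM (0.943) and Ccl20 at 0.930 ± 0.351 and 1.10 ± 0.235 FPKM (0.557). Ccl21a, Ccl21b and Ccl21c have near-identical copies and their values, all under 1 FPKM, are uncertain. Of the CXC and CX3C ligands, the sister family, 6 were tested, and limma called 0 higher and 2 lower (0 and 3 at an unadjusted p under 0.05). Their median log2 difference was -0.30 against -0.01 for all tested genes. The 2 called were Cxcl13, which draws B cells, at -1.59 (limma adjusted p = 0.0218) and Cxcl16 at -0.79 (0.0129). Under the filter, Cxcl2 (means 0.152 and 0.453 FPKM) and Pf4 (0.686 and 1.60 FPKM) were higher in every LRP1 KO library than in any WT library. The groups overlapped for the other ligands under the filter.

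Some genes downstream and upstream of the chemokines were called as well. Of 16 tested genes that relay chemokine receptor signals, limma called 5 higher and 0 lower (9 and 1 at an unadjusted p under 0.05), with a median log2 difference of 0.25. They were Rgs1, which turns G protein signaling off, at 1.65 (limma adjusted p = 0.00214), the Gβγ subunit gene Gng2 at 0.97 (0.0162), the Src family kinase Lyn at 0.87 (0.0118), the PI3Kγ subunit Pik3r5 at 0.58 (0.0169) and the Rac activator Elmo1 at 0.60 (0.0363). Pik3r5 passed the filter through LRP1 KO libraries only, so it had to differ, and the same holds for Mrc1 and Cd52 in the macrophage and leukocyte lists below. Of 25 tested genes for cytokines, receptors and transcription factors that induce CC chemokines, 6 were called higher and 0 lower (6 and 7 at an unadjusted p under 0.05), with a median of -0.07. The interferon regulator Irf7 rose by 1.63 (limma adjusted p = 0.000628), Il6 by 1.37 (0.00788), Jun by 0.68 (0.000916), and Il1r1 and Il4ra by 0.38 (0.0499) and 0.37 (0.0439). Of the NF-κB subunits, Rela differed by 0.02 (0.881), Nfkb1 by -0.04 (0.631), Nfkb2 by -0.23 (0.0889) and Relb by -0.40 (0.0559), none past the threshold, although the groups did not overlap for Relb.

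Markers of macrophages and of all leukocytes were mostly higher in LRP1 KO, as were the chemokines of the second cluster. Of 12 tested macrophage and monocyte markers, limma called 9 higher and 0 lower (10 and 1 at an unadjusted p under 0.05), and the list summed to between 92.3 and 117 FPKM for WT and between 242 and 581 FPKM for LRP1 KO. Those not called were C1qa (1.48, limma adjusted p = 0.105), Cd14 (-0.47, 0.136) and Ly6c2 (-0.20, 0.468). Of 8 tested markers of all leukocytes, 7 were called higher and 0 lower (the same counts unadjusted), with sums of 9.14 to 15.5 and 51.4 to 102 FPKM. Within LRP1 KO both sums were highest in library 2 and lowest in library 3, as were Ccl3, Ccl4 and Ccl6. Ccl5 was highest in library 4 and Ccl9 lowest in library 1, so these members did not follow that order. Lyz2, the macrophage lysozyme, was at 24.0, 43.2, 54.3 and 36.2 FPKM across the 4 WT libraries, against 238, 334, 129 and 298 FPKM across the 4 of LRP1 KO, so its order over the libraries was that of Ccl6 in both groups. Ptprc (CD45), the defining leukocyte gene, was low throughout, with 0.0316 to 0.161 FPKM among WT and 0.403 to 0.860 FPKM among LRP1 KO libraries. The part of leukocyte RNA in the rise of the chemokines was not tested.

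The members were also set against these markers within each library, as a description. The ratio of Ccl6 to Lyz2 was 0.110, 0.146, 0.164 and 0.0947 in WT libraries 1 to 4 and 0.219, 0.212, 0.213 and 0.195 in LRP1 KO libraries 1 to 4, nearly constant in LRP1 KO and above WT in all 4. The ratio of Ccl3 to Lyz2 was also above WT in all 4 LRP1 KO libraries, with means of 0.0129 and 0.0244, whereas the groups overlapped for Ccl4 (means 0.00744 and 0.00847) and for Ccl9 (0.125 and 0.0583). Set against the sum of the leukocyte list, Ccl3 was higher without overlap (1.93 times the WT mean), while the groups overlapped for Ccl6 (1.67 times), Ccl4, Ccl5 (0.436 times) and Ccl9 (0.462 times). Set against the sum of the macrophage list, Ccl3 (2.85 times), Ccl6 (2.44 times) and Ccl4 (1.84 times) were higher without overlap, and the groups overlapped for Ccl5 (0.710 times) and Ccl9 (0.734 times). The ratios of Ccl2 and of Ccl7 to Lyz2 were lower in every LRP1 KO library than in any WT library, at 0.179 and 0.230 times the WT mean. These ratios were chosen after the values were seen and carry no test.

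Markers of other cell types differed between the groups as well. The endothelial markers summed to 621, 394, 459 and 179 FPKM across the 4 of LRP1 KO, so that LRP1 KO library 4 lay within the WT range and the other 3 lay above it. The part of endothelial content in the members' differences was not tested. Of 15 tested endothelial markers, limma called 1 higher (Eng) and 0 lower (10 and 0 at an unadjusted p under 0.05). Of 8 tested mural markers 4 were called higher and 0 lower (7 and 0 unadjusted), with sums of 670.3 to 836 FPKM among WT and 1040 to 1627 FPKM among LRP1 KO libraries, and of 10 tested fibroblast markers 0 were called higher and 3 lower (0 and 5 unadjusted). Of 10 neutrophil markers 2 were tested, of which S100a8 was called higher (log2 rise 0.94, limma adjusted p = 0.0475) and Mmp8 was not called (-0.57, 0.136), with 1 higher and 1 lower at an unadjusted p under 0.05 and overlapping groups for both. No marker of T and NK cells, B cells, or mast cells, basophils and eosinophils passed the filter, and the summed levels of these lists stayed at or below 0.820 FPKM in every library.

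**Figure D4:**
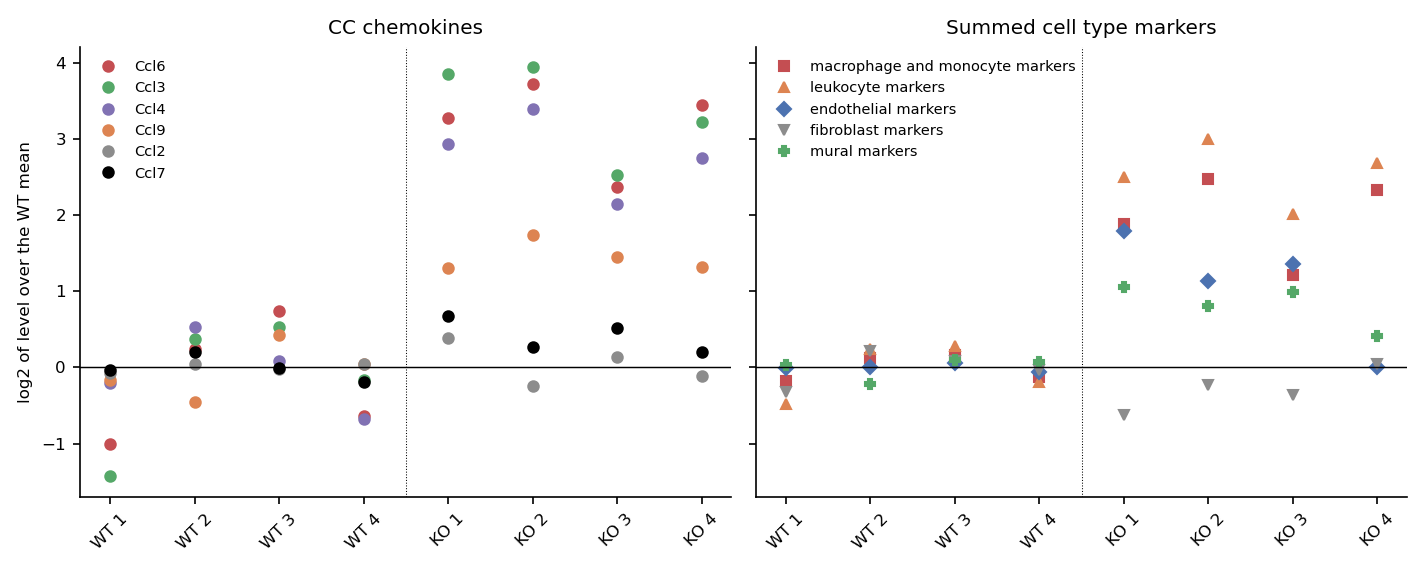
Levels relative to the WT mean on a log2 axis in each of the 8 libraries, for 6 CC chemokines (left) and for the summed FPKM of 5 marker lists (right), with a dotted line between WT and LRP1 KO. Ccl6, Ccl3 and Ccl4 are highest in KO 2 and lowest among the LRP1 KO libraries in KO 3, as are the leukocyte and macrophage sums, while the endothelial sum is highest in KO 1 and at the WT level in KO 4.

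The bases before the start of Ccl6 and Ccl9 are shown because these neighbours overlapped in WT and rose by different amounts. RefSeq (GRCm38.p6) promoter entries matched 5 members, Ccl3, Ccl6, Ccl8, Ccl9 and Ccl12. Not matched were Ccl2, Ccl4, Ccl5, Ccl7 and Ccl11. Each sequence is the 250 bases before the start, on the minus strand of the chromosome and read 5′ to 3′, and capitals mark the ETS core AGGAAG, here in its reverse complement CTTCCT. PU.1 (Spi1), the myeloid factor of the ETS family, binds sites with such a core.
Ccl6, chr11:83593088-83593337, minus strand: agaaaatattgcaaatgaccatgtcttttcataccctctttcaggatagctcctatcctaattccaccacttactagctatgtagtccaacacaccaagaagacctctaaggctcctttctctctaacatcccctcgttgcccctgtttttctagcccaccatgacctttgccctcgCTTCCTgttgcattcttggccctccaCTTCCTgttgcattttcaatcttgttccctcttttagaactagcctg
Ccl9, chr11:83578637-83578886, minus strand: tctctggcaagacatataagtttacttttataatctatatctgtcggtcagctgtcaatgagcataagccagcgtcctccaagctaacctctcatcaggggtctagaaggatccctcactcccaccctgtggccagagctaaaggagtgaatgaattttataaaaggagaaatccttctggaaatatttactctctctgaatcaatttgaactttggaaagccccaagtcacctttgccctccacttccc
The Ccl6 window held the core at 73 and at 47 bases before the start, and the Ccl9 window had no exact match. The core was searched on both strands, and 29.5% of 32851 RefSeq promoter windows of this length held it at least once. Among the other members, Ccl12 held it 3 times, Ccl8 once and Ccl3 not at all. A motif of the AP-1 type, TGANTCA, lay 53 bases before the start of Ccl9 (6.75% of windows), a κB-like match (GGG and CC with any 5 bases between) lay 35 bases before it (45.8%), and TATAAA matches that overlap each other lay 94 and 92 bases before it, with another at 224 (12.4%). TATAAA also lay 32 bases before Ccl8 and 31 before Ccl12. The C/EBP letters TTGCNNAA (9.56% of windows), the interferon-type motif of GAAA repeated after any 2 bases (2.98%) and the STAT letters TTCNNNGAA (7.02%) had no match in these 5 windows. The Ccl6 and Ccl9 windows had 56.2% of aligned bases in common, with a shared run of 17 bases of which 16 were the same. Counted from the start, that run spans -59 to -43 in Ccl6 and -18 to -2 in Ccl9, so it reaches into the Ccl6 core at 47. There Ccl9 reads cttccc, which differs from CTTCCT in the last letter alone. The lack of a match in Ccl9 therefore rests on the exact letters searched. A match describes letters in this window and is neither a bound site nor a cause.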

How the data were processed

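RNA sequencing libraries were grouped by their titles, 4 WT and 4 LRP1 KO. The deposited table holds FPKM values that the authors quantile normalized: column sums differed by little (503571 to 504112) and all columns share a maximum of 7793. The unit is inferred from the submitters' processing notes, which name TopHat2, Cufflinks and mm10, while the study's methods name STAR, featureCounts and edgeR. Sequencing depth is not recoverable, so no counting error could be given and precision rests on the spread between libraries.

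Here, log2(FPKM + 1) was fitted with limma 3.58.1 (variance trend, R 4.3.3) for the 11389 genes with at least 1 FPKM in at least 4 libraries, as the values were no counts. P-values were adjusted by the Benjamini-Hochberg method over all tested genes, and a gene was called at an adjusted p under 0.05. Single members and log2 ratios of member pairs (of FPKM + 1, and without the added 1 as an alternative chosen after seeing the data) were compared with exact two-sided permutation tests over 70 splits. On simulated data the fit recovered 93% of changes of 1 and 99% of changes of 2 on the log2 scale, and 5.53% of the genes it called were false. Genes named are Lrp1, the 10 members, genes of the lists and, for each tested member, the 3 genes with the highest within-group correlation. E230016K23Rik, Gm17268 and the genes of the ratios to Lyz2 were added after their values or positions were seen. Members and lists were chosen with earlier results of these data known. The 15 alternatives covered the pseudocount, filters, scaling, variance trend, library weights, the replicate number as a block and each library left out in turn. Positions and coding sequence came from GENCODE M21 (21740 of 22520 genes matched), promoters from RefSeq, and alignments from Biopython 1.88. No protein sequences were used here. A few list genes and the sequence of a member are not reported here.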

Additional observations from a re-analysis of the deposited data

How the results depend on the processing

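Ccl3, Ccl4, Ccl6 and Ccl9 kept their direction and their call under all 15 alternatives, with log2 rises of 1.98 to 3.28, 1.10 to 2.48, 2.88 to 3.38 and 1.19 to 1.47. For Ccl3 and Ccl4, which passed the filter through LRP1 KO libraries only, a kept call is no independent support. The highest values for Ccl3 and Ccl4 came with a pseudocount of 0.1 in place of 1, which also took Ccl5 from 0.75 to 1.44. With no pseudocount, an alternative chosen after seeing the data, the differences were 0.69 for Ccl3 to Ccl4 (exact permutation p = 0.171), 1.88 for Ccl6 to Ccl9 and -0.38 for Ccl2 to Ccl7 (0.0286 each). The latter 2 had an adjusted p of 0.0429 over the 3 pairs with no value at 0 and of 0.0714 over all 5 pairs, so over the family used in the report none of the 3 was past the threshold. Ccl7 lost its call in 10 alternatives and Ccl5 in 6, without a change of direction. Ccl2 was not called in any, and its difference ran from -0.0718 to 0.14 with a library left out, the negative value without LRP1 KO library 1 only. The number of members called ran from 4 to 6 and the number with separate groups from 6 to 7. Calls over all tested genes depended far more on the setting: against 1547, there were 3003 with library weights, 1013 with the replicate number as a block, and 512 to 3021 with a library left out. Leaving out LRP1 KO library 4 gave 3021, and leaving out WT library 1, 2, 3 or 4 gave 850.0, 512, 919 or 1008 and LRP1 KO library 1, 2 or 3 gave 566, 522 or 546. The cause was not tested.

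Deviations of libraries with the same number correlated at r of 0.16, 0.14, 0.34 and -0.31 for numbers 1 to 4, and those with different numbers at -0.40 to 0.38. Number 4 did not deviate together, so the numbers were not taken to pair the samples. With the replicate block 5 of the members were called. Rescaling the libraries by their median ratio changed them by factors of 0.995 to 1.02. Levels near 0, as for Ccl8, Ccl11 and Ccl12, are at the limit of what these values resolve, and an unknown depth means that no interval from counting can be set on them.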
